A study of Mus musculus with 4 samples.

Results

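MILI (Piwil2) is a PIWI protein of mouse male germ cells, and the small RNAs it holds, piRNAs, guide it to complementary transcripts of transposable elements. A piRNA usually starts with U. When a PIWI protein slices a target, the cut falls across from positions 10 and 11 of the guide, so a new piRNA made at that cut overlaps its guide by 10 nt and tends to carry A at position 10 where the guide starts with U. This back-and-forth is called the ping-pong cycle. Tdrd9 encodes a helicase that works with the PIWI proteins in germ cells. B1 and B2 are short interspersed repeats of rodents (SINEs), B1 being derived from 7SL RNA, and L1 is the long interspersed repeat (LINE) that still moves in mice.

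The ends described here are 5′ ends of MILI-bound RNAs whose first 20 nt turned up at 10 or more different places in the mouse genome. They numbered 3070 of 3453747 distinct 5′ ends (a chromosome, strand and 5′ position) of sequences of 20 nt or more, and they used 168 different 20-mers. MILI was immunoprecipitated from testes of C57BL/6 mice at 14 dpp (days post partum), in 2 libraries of Tdrd9-/- mice and 2 of Tdrd9+/- mice, so the controls were heterozygous and kept 1 working allele. RNA of roughly 28 to 30 nt was cut from a gel before library preparation. The deposited table pools the libraries into a list of distinct sequences with mm9 positions, and it gives no read counts and no library of origin. The genotypes were therefore not compared, depth per library is unknown, and an abundant RNA counts the same as a rare one. Every sequence stands in the list at a single position, so ends that share their first 20 nt were listed with different full sequences. Whether a sequence with several genomic copies was left out or placed at 1 of them is not given.

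The ends were chosen by the number of listed positions of their first 20 nt, so that number is a description. At 9 positions there were 45 20-mers, just outside it, while 34 lay at 10 and 19 at 11 positions, just inside. The fullest 20-mer stood at 126 positions and the median of the 168 was 13. The members lay on 21 chromosomes, and 50.6% (1554 of 3070) were on the plus strand. Ends with a 20-mer at 2 to 9 positions (26059 ends) and ends with a 20-mer found at a single position (3424618 ends) are given beside them below. Intervals are at 95%, exact (Clopper-Pearson), and cover only counting error. Ends of the same 20-mer share their sequence and ends of all sets share the libraries, so no test was run between these sets.

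Most members came from 4 repeats. The 20-mers fell into 63 families when 20-mers sharing a 12-nt stretch on either strand were joined. Joining families that also keep a fixed spacing in transcripts of 5 or more genes left 27 elements, a grouping added after the values were seen. The 4 fullest held 2519 of the 3070 ends (82.1%). The first, B1, held 1302 ends in 62 20-mers (42.4% of the ends). L1 held 544 ends in 30 20-mers (17.7%), B2 held 377 ends in 26 20-mers (12.3%), and element 4, left unnamed, held 296 ends in 16 20-mers (9.64%). The other 23 elements held 551 ends in 34 20-mers, of which 5 20-mers with 125 ends were runs of A or simple repeats. No repeat annotation was used, and the names L1 and B2 rest on general knowledge of these sequences. For B1 the name was also checked against 7SL RNA in GENCODE: around its second-ranked 20-mer, 48 of 60 aligned nt were identical to 7SL in antisense. A 20-mer read in the opposite direction, around which 48 of 64 nt matched, aligned to 7SL in sense. Not every alignment ran this way: the fullest B1 20-mer matched in antisense over 29 of 41 nt, no more than some 20-mers of other elements, and 2 B1 20-mers of the opposite direction also aligned in antisense, over 49 and 48 of 78 nt. The fullest B1 20-mer is called antisense below on the strength of the 2 closest matches and of general knowledge of B1. The share of B1 is a minimum, because 3 20-mers with 35 ends, each a single base from a B1 20-mer, stayed outside it. They shared no 12-nt stretch with the B1 20-mers. Among them were a variant of its fullest 20-mer (A12C, 10 ends) and one of its second-ranked 20-mer (G12A, 14 ends). The same held for L1, where 1 such 20-mer with 16 ends stayed outside, and for B2, where 1 with 14 ends did. Only single-base relatives were counted in this way. Whether the other 23 elements hold more distant copies of the same repeats was not tested, so these counts do not bound what stayed outside. Element 6, with 80 ends, is a candidate for B1. Its 20-mers begin much like B1 20-mers that start 22 and 24 nt along from the fullest B1 20-mer. Whether it belongs to B1 was not tested.

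The following sequences from the list show the fullest 20-mers of the families these results turn on, each at 1 of its positions in mm9. Capitals mark the recurring 20 nt, lower case the letters after them, some of which differ between copies, and T stands for U.
B1 antisense, second-ranked site, at 62 positions, here chr1:55292714-55292740 minus: TGGGATTAAAGGCGTGCACCatccact
B1 sense, another site, at 18 positions, here chr11:86748185-86748211 minus: CGGATTTCTGAGTTCGAGGCcagcggt
L1, at 54 positions, here chr1:104998618-104998644 plus: TAAAGAACTCAAGAAGGTGGaccgcag
L1, another site, at 22 positions, here chr4:105417894-105417920 plus: TTGGACATAGTACTACCGGAagagctc
B2, at 36 positions, here chr17:69551206-69551232 plus: TTCTGGAGTGTCTGAAGACAgctatta
B2, opposite direction, at 20 positions, here chr11:62356537-62356563 minus: TGAACTCAGGACCTCTGGAAgcacaca
Element 4, at 86 positions, here chr1:55514940-55514966 plus: TAGAAACCCTGACTAAGACAgagtatt
Element 6, of 80 ends and also unnamed, at 23 positions, here chr10:62806432-62806458 minus: CTTGAACTCACAGAGATCTGcctgtca
The fullest B1 20-mer, at 126 positions, is shown further on.

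B1 ends gathered at a few sites, while L1 ends were spread over 24 positions. In B1, 21 20-mers with 467 ends began at the site of the fullest 20-mer, and their 5′ ends differed in sequence but not in place. A second antisense site 62 nt further along held 362 ends in 19 20-mers. On the opposite strand, 137 ends in 5 20-mers began at +9, which puts their 5′ ends in a 10-nt overlap with the fullest site. Other B1 sites, as the 20-mers were joined here, were smaller, with 70 ends at +1, 52 at -1, 46 at +2 and 43 at -6. These counts leave out element 6, which had 69 ends at its fullest site and 11 ends 2 nt further along. If element 6 belongs to B1, the order of the smaller sites would change. By direction, B1 had 1107 antisense ends and 195 sense ends. In L1 all 544 member ends ran in 1 direction, at sites from -583 to +980 nt around its fullest 20-mer, with no site above 67 ends. B2 had 291 ends in the direction of its fullest 20-mer and 86 in the other. Its fullest sites were at +12 (78 ends), 0 (76 ends) and +3 (59 ends), and its opposite ends stood at -57 (56 ends) and -50 (30 ends). Element 4 had 251 ends in the direction of its fullest 20-mer and 45 in the other, with 96 ends at the fullest site and 55 at -294.

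**Figure D1:**
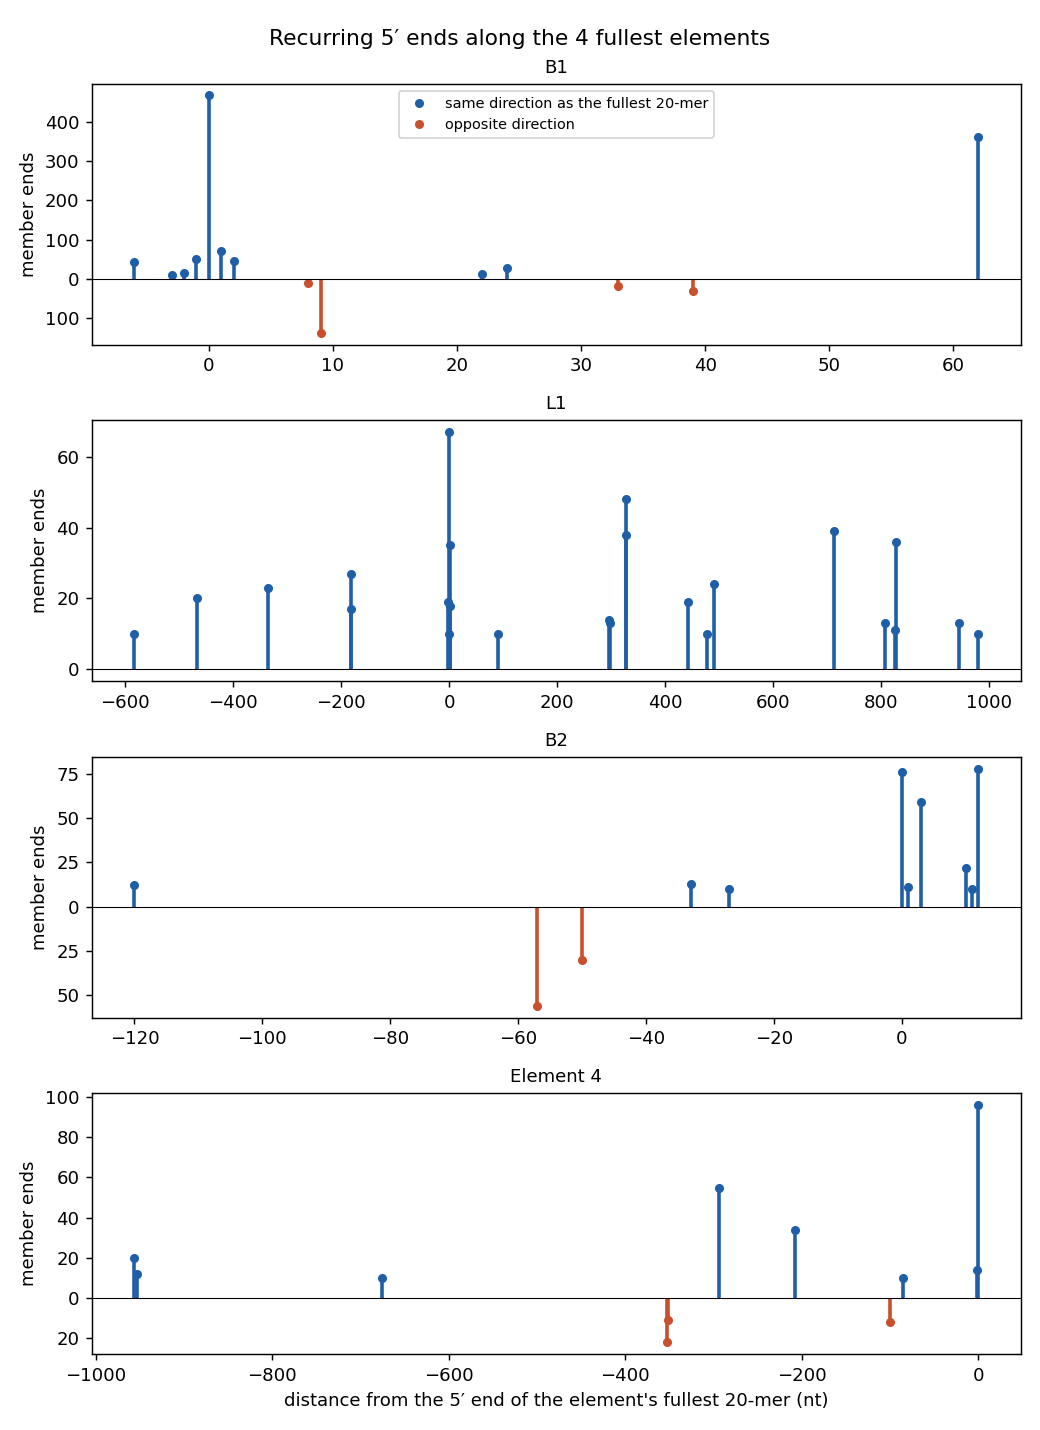
Number of member ends (vertical axis) at each 5′ position along the 4 fullest elements (horizontal axis, nt from the fullest 20-mer's 5′ end); points above 0 run in the direction of the fullest 20-mer and points below 0 run opposite. B1 ends stood mainly at 0 (467 ends) and +62 (362 ends), with 137 opposite ends at +9, and L1 had none in the opposite direction.

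The same site was listed in many sequence versions. The fullest B1 20-mer had 17 single-base variants among the members, at 11 of its positions and with 304 ends together. The commonest were C6U with 61 ends, G20A with 35 and G16A with 21, counted from 1 at the 5′ end of the 20-mer, the fullest 20-mer's base first. The second-ranked B1 20-mer had 8 such variants with 164 ends, led by G14A with 46 and A18G with 39. The fullest 20-mers of L1, B2 and element 4 had 1 each, with 13, 20 and 10 ends.

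All 168 20-mers were also found in GENCODE transcripts, in 2 to 1608 genes each (median 47.5). The number of listed ends followed the number of such genes loosely across the members (Spearman's rho 0.41 over 168 20-mers) and more closely within B1 (rho 0.69 over 62). It was 0.49 over 16 20-mers of element 4, 0.25 over 26 of B2 and 0.07 over 30 of L1. The fullest B1 20-mer, with 126 listed ends, was in transcripts of 1166 genes, whereas the fullest 20-mer of element 4 had 86 ends and 115 genes and that of L1 54 ends and 58 genes. These correlations describe 20-mers that share libraries and copies of the same repeats.

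The base at position 10 varied from element to element. Over all members A stood at position 10 in 60.8% of ends (59.1–62.5%), against 46.4% (45.8–47.0%) of ends at 2 to 9 positions and 31.4% (31.4–31.5%) of single-position ends. With each 20-mer counted once, 100 of 168 had it (59.5%, 51.7–67.0%). B1 stood at 80.9% (78.6–83.0%) and L1 at 57.0% (52.7–61.2%), while element 4 had 33.4% (28.1–39.1%) and B2 19.1% (15.3–23.4%). All 45 opposite-direction ends of element 4 had A at position 10, but 21.5% of the 251 ends in its main direction did. B1 had it in both directions, in 82.7% of antisense and 70.3% of sense ends. A was also frequent at other positions of the members, with 46.1% at position 5, 49.7% at position 12 and 46.7% at position 15.

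U stood first in 80.1% of member ends (78.6–81.5%), close to the 80.2% of ends at 2 to 9 positions and above the 71.9% of single-position ends. By element it was 100% in element 4, 91.5% in B2, 82.3% in B1 and 74.1% in L1. Element 6, which was not tested for belonging to B1, had U first in 30.0% and A at position 10 in all 80. First U and A at position 10 met in 1480 member ends (48.2%), and 224 (7.30%) had neither.

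**Figure D2:**
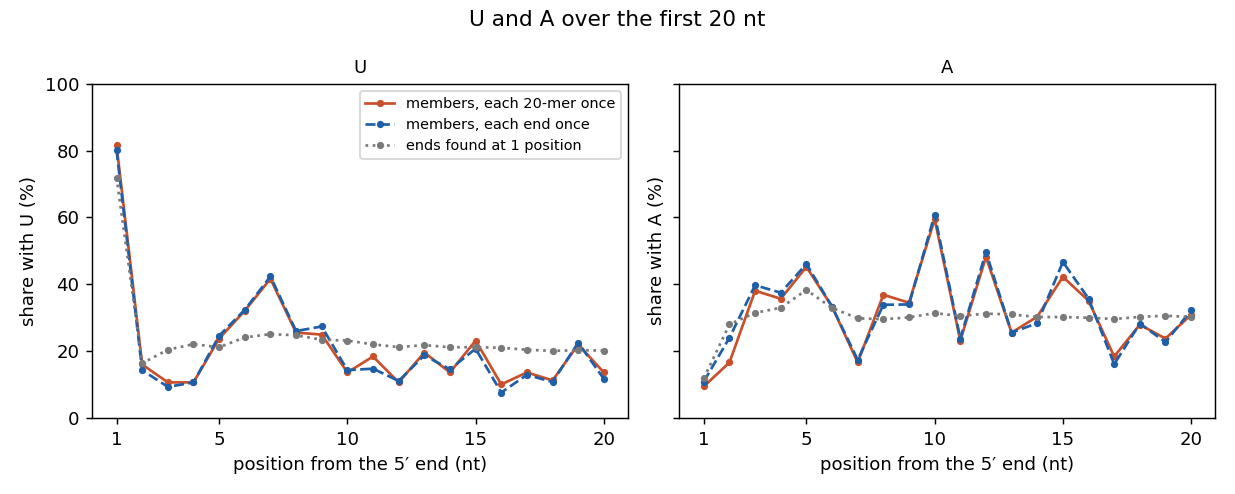
Share of ends (vertical axis, percent) with U (left) or A (right) at each of the first 20 positions (horizontal axis, nt from the 5′ end), for the members with each 20-mer or each end counted once and for single-position ends. A at position 10 reached 60.8% of member ends, against 31.4% of single-position ends, and members also had peaks of A at positions 5, 12 and 15.

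Complementary partners were sought by sequence, anywhere in the list, because a guide and its product need not come from the same genomic copy. For each of the 168 20-mers the 19 nt that most often precede it in transcripts were taken, the 20-mer that would start on the other strand at an overlap of 1 to 20 nt was written, and the list was searched for it. At an overlap of 10 nt, 71 of 168 20-mers (42.3%, 34.7–50.1%) had a listed partner, while the other overlaps averaged 31.2 20-mers (range 12 to 52), a ratio of 2.27. These 71 20-mers covered 1443 of the 3070 ends. Their partners were 52 different 20-mers at 509 ends, against a mean of 83.1 partner ends and a maximum of 300 at the other overlaps. Of the 52 partners, 10 were themselves members and 42 stood at 9 or fewer positions. No test was run on this profile, since the 20-mers of an element share sequence.

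By element, the counts at 10 nt stood as follows. In L1, 12 of 30 20-mers had a partner at 10 nt, 8 had one at 9 nt, and the mean over the other overlaps was 1.74. The 12 included all 5 20-mers of a single family, at +327 and +328. Their partners were 10 different 20-mers with only 20 ends, against a mean of 2 and a maximum of 12 partner ends at the other overlaps. In element 4, 5 of 16 20-mers had a partner at 10 nt, against a mean of 1.37. In B2 the count at 10 nt lay below the mean of the others: 2 of 26 had a partner at 10 nt, against a mean of 3.21 at the other overlaps and a maximum of 7 at 20 nt. In B1, 44 of 62 had a partner at 10 nt and 43 had one at 3 nt. By partner ends B1 stood further apart, with 451 at 10 nt against a maximum of 276 at any other overlap. Leaving B1 out, 27 of 106 20-mers had a partner at 10 nt, against a mean of 8.53 and a maximum of 15 at 9 nt.

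**Figure D3:**
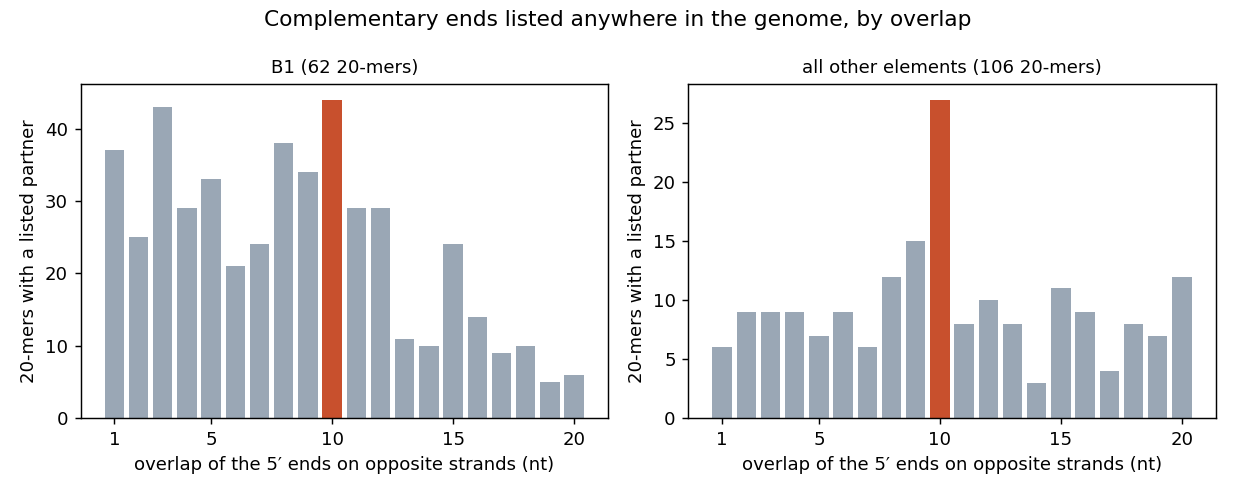
Number of member 20-mers with a complementary 20-mer in the list (vertical axis) at each overlap of the 5′ ends (horizontal axis, nt), for B1 (left) and all other elements (right). The other elements have 27 of 106 at 10 nt and at most 15 elsewhere, while B1 has 44 of 62 at 10 nt and 43 at 3 nt.

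The fullest B1 antisense 20-mer and 2 of its single-base variants that had partners follow with their mm9 positions. Capitals mark the 10 nt that are complementary to the partner.
B1 antisense, at 126 positions, here chr1:22739944-22739970 minus: TCACTCTGTAgaccaggctggcttagt
B1 antisense with C6U, at 61 positions, here chr11:97102042-97102068 plus: TCACTTTGTAgaccaggctggccagag
B1 antisense with C4U, at 20 positions, here chr10:82814680-82814706 minus: TCATTCTGTAgaccaggctggccttta
Each of these starts with U and has A at position 10. At a 10-nt overlap the first base lies across from position 10 of the partner.

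The sequence versions of B1 appeared on both strands. Of the 30 possible single-base changes within the shared 10 nt, 24 were listed in both the antisense 20-mer and its complement, 3 in the antisense 20-mer alone, 2 in the sense 20-mer alone and 1 in neither. C6U (61 antisense ends, 43 ends of its sense complement) and C4U (20 antisense ends, 14 of its sense complement) were the fullest on either strand. Other changes were lopsided: A3G had 18 antisense ends against 5 of its complement, A3C had 18 against 2, and C2U had 15 against 3. Across the 30 changes the rank correlation of the 2 counts was 0.40, as a description. A genomic copy that carries a variant carries it on both strands, so matched listing on its own does not tell a pair of processed RNAs from 2 RNAs of variant copies.

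**Figure D4:**
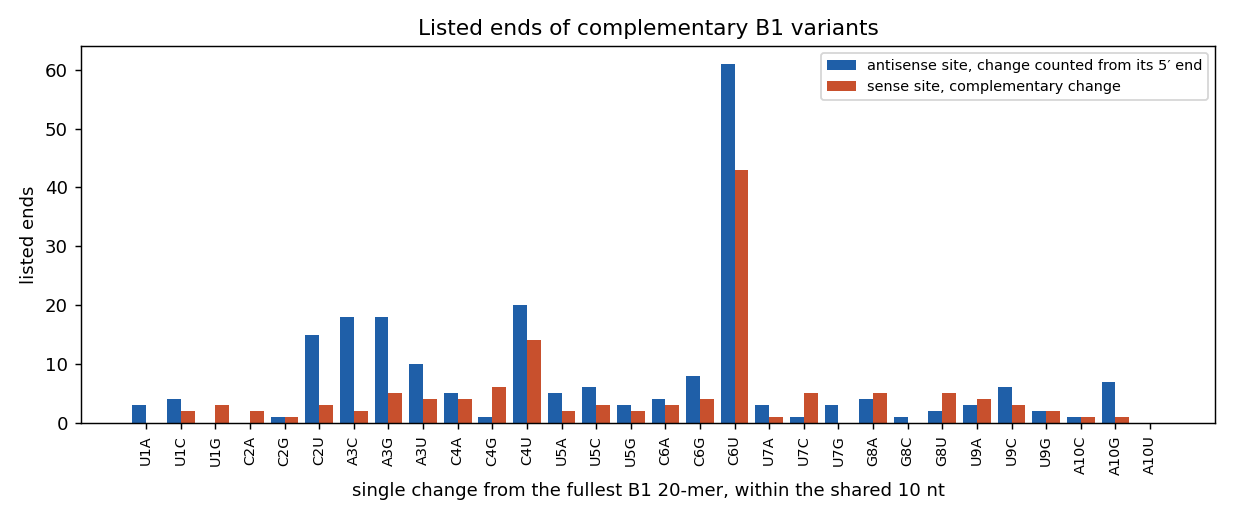
Number of listed ends (vertical axis) for each single-base change in the 10 nt shared by the antisense and the sense B1 20-mer (horizontal axis, named on the antisense strand). C6U stands out with 61 antisense and 43 sense ends, and 24 of the 30 changes have ends on both strands.

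None of the L1 and element 4 partners was itself a member, so each stood at 9 or fewer positions by the rule that chose the members. The L1 20-mer with the most partner ends stood at 19 positions and its partner at 7. In element 4 the corresponding numbers were 32 and 9.
L1, here chr7:60638753-60638779 plus: ATTGGACATAgtactaccggagggtgc
L1 partner, here chr16:91508755-91508781 plus: TATGTCCAATtttctgaggaccggcca
Element 4, here chr1:6984044-6984070 minus: TGAGATCCAActgtaaggcatatttct
Element 4 partner, here chr15:90202435-90202461 minus: TTGGATCTCAtggaggcattcctcaac
Capitals again mark the complementary 10 nt. The L1 member in this combination starts with A and its partner has U at position 10. Over all 52 partners, 39 (75.0%) had A at position 10 and 35 (67.3%) started with U. Both shares follow from the members that had partners. A partner's base at position 10 is fixed by the first base of its member, and its first base by the member's position 10. Nothing is read from these shares.

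At the same genomic place such partners were few. Only 14 of the 3070 member ends (0.456%, 0.250–0.764%) had an end 10 nt away on the opposite strand of the same locus, close to the 0.437% of single-position ends. They formed 11 pairs. B1 gave 11 of the 14 ends and element 4 gave 3, while no L1 (0 of 544, with an exact upper bound of 0.676%) or B2 end (0 of 377, upper bound 0.974%) had one. In 3 pairs, all B1, both ends were members, with 5′ positions at chr14:8525341-8525350, chr9:71750426-71750435 and chr9:107530728-107530737.

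The RNAs at member ends were somewhat longer than the rest. Their 4054 sequences averaged 27.9 nt (SD 1.75 nt between sequences) with most at 28 nt, against 27.5 nt for ends at 2 to 9 positions and 27.1 nt, with most at 27 nt, for single-position ends. Sequences of 29 nt or more made up 31.2% of member sequences, 22.7% of those at 2 to 9 positions and 15.01% of those at single positions. Part of this came from the runs of A of element 5, whose 100 sequences averaged 35.3 nt: without them the members averaged 27.8 nt, with 29.4% at 29 nt or more. B1, L1, B2 and element 4 had means from 27.7 nt in B1 to 27.9 nt in L1. Past base 20, copies stayed alike for some way. The longest sequence of a member end was compared, from its 5′ end, with those of all other ends of its 20-mer. The longest match before a first difference had a median of 24 nt, and it can rise with the number of ends compared. A median of 4 nt remained from that difference on, and how many of these differed was not counted. Length and being listed at a single position cannot be told apart here.

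Members seldom matched a spliced transcript along their whole length. No exact match was found for 94.6% of member ends, 83.8% of ends at 2 to 9 positions and 50.9% of single-position ends. Sense matches covered 4.56% of members (3.85–5.36%), 14.8% of ends at 2 to 9 positions and 46.0% of single-position ends. Among ends matched in a single orientation, antisense made up 16.4% of members (27 of 165, 11.1–22.9%), against 8.60% and 6.40%. The matched members were spread over 118 genes in sense and 28 in antisense, with at most 3 ends in any gene, so no gene is named. B1 ends had the highest sense share of the 4 elements at 6.68%, and L1 the lowest at 0.551%.

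A smaller share of members than of other ends lay in the regions where the list is densest. Windows of 20 kb with 1000 or more sequences held 2.57% of members (2.04–3.20%), 6.06% of ends at 2 to 9 positions and 15.9% of single-position ends. None of the 544 L1 ends lay in one (exact upper bound 0.676%), against 3.15% of B1, 3.18% of B2 and 3.38% of element 4 ends. The windows were picked by counts in this same list, nearly all of it single-position ends. That choice itself raises the share of single-position ends. The part of the genome in these windows was not computed, so whether members are rare there for its size is unknown. A member end had a mean of 1.32 sequences, against 1.43 for ends at 2 to 9 positions and 1.42 for single-position ends.

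**Figure D5:**
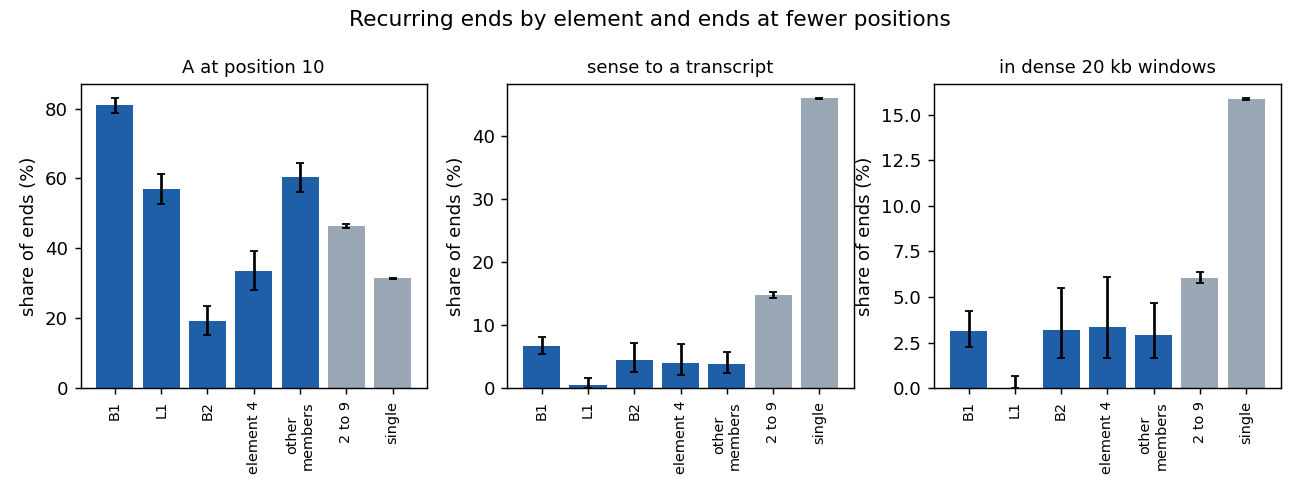
Share of ends (vertical axis, percent) with A at position 10, with a sense transcript match and in 20 kb windows of 1000 or more sequences, for member ends by element (blue) and ends at 2 to 9 positions or a single position (grey); bars show exact 95% intervals for counting error. A at position 10 spans 19.1% in B2 to 80.9% in B1, while all elements lie below the single-position ends in the other measures.

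The X chromosome held 4.92% of member ends (4.18–5.74%), 4.40% of ends at 2 to 9 positions and 1.83% of single-position ends. Of the elements, L1 had 10.5% (57 of 544, 8.03–13.4%), element 4 had 6.08% (3.64–9.44%), B2 had 2.92% (1.47–5.16%) and B1 had 2.76% (1.94–3.81%). On the 19 autosomes the share of members divided by the share of all other ends ran from 0.669 to 1.46.

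The list as a whole was checked for its tissue by counting sense sequences of marker genes, which are sequence numbers and not expression. The germ cell genes Ddx4, Dazl, Sycp3, Stra8, Kit and Zbtb16 had 149 to 590 each. The Sertoli cell genes Sox9, Amh, Wt1 and Gata4 had 7 to 27. Of the Leydig cell genes Star had 247, and Cyp17a1 and Hsd3b1 had 0.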

How the data were processed

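The deposited table gives, per the file headers, a sequence, chromosome, start, end and strand for 4906138 distinct sequences, on mm9 per the submitters' processing notes. Its values are 1-based positions and not counts. For the aligner, mismatches and filters, nothing is given in the sources used here. The 4 libraries (2 Tdrd9-/-, 2 Tdrd9+/-) share the table without labels, so the planned genotype test and any replicate error could not be had. The 1827 sequences under 20 nt were left out. The members, the lists and the added groupings were chosen with earlier results of these data known.

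Sequences were matched exactly to 141767 GENCODE M21 transcripts. Only sequences, never coordinates, were taken from that annotation. Families share 12 nt. Elements also join families with a spacing constant within 2 nt, at most 400 nt apart, in 5 or more genes, in 20% of the genes of the rarer 20-mer and 30% of the genes with both. Sequences printed are those of the fullest 20-mer of the largest families, runs of A excepted, and of sequences with complementary partners, chosen after their values were seen; some partners are not reported here. Some steps were tested on simulated data, where 80 of 80 planted 20-mers, 40 of 40 families and 80 of 80 overlaps at the same place were found. The planted relatives differed by a base near their start, so all shared 12 nt, and variants changed in the middle were not simulated. The joining by spacing and the search for partners by sequence were not tested in this way. The software was Biopython 1.88, matplotlib 3.10.9, scipy 1.17.1, pandas 2.3.3 and numpy 2.4.6 under Python 3.11.15.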

Additional observations from a re-analysis of the deposited data

How the results depend on the processing

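Of 53 alternatives, 33 left their value in place. A share had to stay within its interval, and a count or the partner ratio within 1.5 times. A mean length had only to stay within the SD between sequences (1.75 nt), and every mean length passed by that rule. The members depend on the cut-offs: at 5 or more positions there were 6826 ends in 780 20-mers, at 20 or more 1462 in 42, with the first 18 nt 6662 in 345 and 129 families, and with the first 22 nt 1485 in 89 and 35 families. The share with A at position 10 was 57.2% at 5 or more positions and 55.4% without the largest family. The share with a 5′ U was 81.7% with the first 18 nt, 82.5% for sequences of 24 to 31 nt, 81.5% with every 20-mer counted once and 81.7% over distinct sequences. The share with a 10-nt partner at the same place was 0.202% with the first 22 nt. Joining families by 15 nt put the largest at 24.9%, and joining also by spacing in transcripts, added after seeing the data, left 27 families, the largest with 42.4%. The excess of partners at 10 nt ran from 2.20 to 3.17 times the mean of other overlaps over the 4 alternatives added after seeing the data. No paired analysis was possible because the table names no library. Depth is unknown, and no sequence is listed at more than 1 position, so copies identical over their whole length could not be counted.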
